A study of Oncorhynchus mykiss with 38 samples.

Results

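Whole testes of male rainbow trout (Oncorhynchus mykiss) at stage V (n = 4) were compared with whole testes at stage IIIb (n = 3), 7 of the 38 nylon cDNA arrays of the series, over all 9024 clones with values. Stages were assigned by histology, from the most advanced germ cell in the gonad, together with the gonadosomatic index. Stage V testes held post-meiotic spermatids and stage IIIb testes large numbers of meiotic spermatocytes, both in fish of an experimental farm early in maturation, and no genotype, treatment or age is given for either group. The other arrays held whole testes at stages I (n = 5), IIa (n = 4) and IIb (n = 4), before meiosis, at stage VIII (n = 3), at spawning, and elutriated spermatogonia (n = 6), spermatocytes (n = 6) and spermatids (n = 3). These fractions came from pooled testes and were enriched, not pure. Nothing states that the arrays of a stage stand for separate fish, and p-values therefore weigh a difference against the spread among these arrays, which may be technical.

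Spermatogenesis in trout proceeds in cysts, in which a clone of germ cells is enclosed by Sertoli cells and passes in step through mitosis, meiosis and spermiogenesis. A haploid spermatid condenses its nucleus and builds a flagellum from its centriole, with axonemal proteins, centrins and the intraflagellar transport machinery. The transcripts for these parts are known, in other vertebrates, to be made in part already in late spermatocytes. Steroidogenic Leydig cells, peritubular cells, vessels and blood make up the rest of the organ. In whole organs, fewer cells of a type and less RNA per cell cannot be told apart.

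Values are log2 signals, in which a difference of 1 is a doubling. The median of all arrays, 8.17, was taken as background here, and the range was 5.31 to 13.38. The study had used the median signal of an array as background in its tissue profiling. Arrays of these stages were the tightest of the series, with a median SD per clone of 0.15 in stage V and 0.15 in stage IIIb, against 0.20 to 0.23 in the other stages and 0.22 to 0.34 in the isolated cells. With each clone centred, the correlation between arrays was 0.571 to 0.794 within stage V and 0.315 to 0.520 within stage IIIb. Between the stages it was 0.266 to 0.626. The highest correlation across the stages thus exceeded every one within stage IIIb.

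No clone passed an adjusted p of 0.05 in the test that shared the spread of all 38 arrays (limma, 0 of 9024, 0%). The smallest adjusted p was 0.185, and an unadjusted p under 0.05 was reached by 478 clones (5.3%), 359 of them higher in stage V (3.98%) and 119 lower (1.32%). When limma was run on the 7 arrays alone, 153 clones passed (1.7%), of which 143 were higher in stage V (1.58%) and 10 lower (0.111%). The difference between both fits lay in the spread that each used, the group means being the same. Across all clones the changes were small and nearly centred, with a median of -0.02 and 44.7% above 0.

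Large changes were mostly upward. A difference of at least 1 was measured for 51 clones (0.565%) and of -1 or less for 8 (0.0887%). Stage V and stage IIIb arrays did not overlap for 50 of the 51 and for 6 of the 8. These clones were chosen by their difference on the same arrays, so that such separation was largely set by the choice. In all clones stage V lay wholly above stage IIIb for 674 (7.47%) and wholly below for 545 (6.04%). An exact permutation test of a single clone could not go below a two-sided p of 0.0571 with 4 against 3 arrays, 35 splits in all. Adjusted p-values are therefore given below from limma, first with all 38 arrays and then with the 7 arrays alone, and the calls on 7 arrays are named as such.

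**Figure D1:**
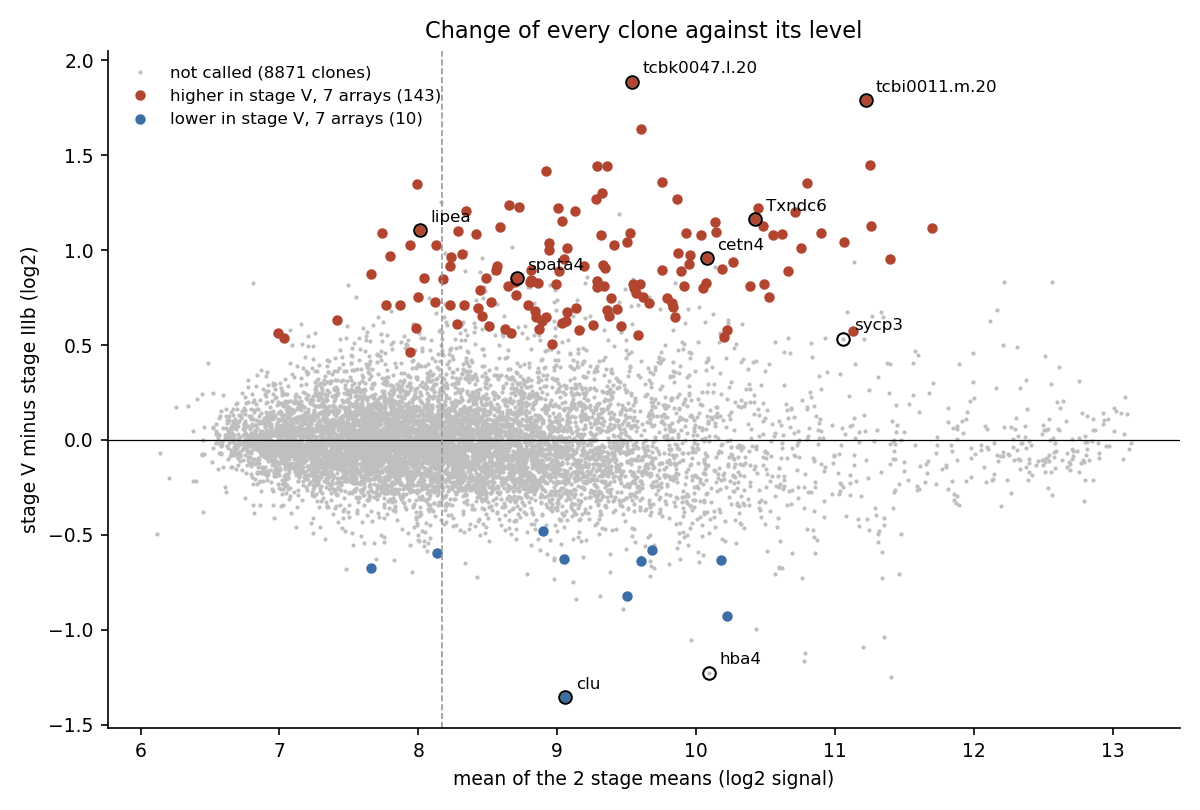
Change of each clone (stage V minus stage IIIb, log2) against the mean of both stage means (log2 signal), with the clones called by limma on the 7 arrays alone in colour and the background of 8.17 as a dashed line. The 143 red clones reach 1.89, the 10 blue ones -1.36 (clu), and hba4 and sycp3 are circled but not called.

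The list of flagellum and centriole genes had the highest median of all lists. Members were matched by symbol, and spata4, whose change is the median, was included through its name alone. This list had 5 clones of 4 genes, and all 5 had every stage V array above every stage IIIb array (7.47% of all clones), with a median change of 0.85. On the 7 arrays 3 of the 5 passed as higher (1.58% of all clones). Txndc6, the largest change of the list, was named only by the study, which had clustered it as meiotic and post-meiotic on these samples. By in situ hybridization of stage V testes, the study also reported a strong Txndc6 signal in spermatocytes and in spermatids. No other list had a median above 0.53, the value of the meiosis list with its 1 clone, sycp3.

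Txndc6, a thioredoxin-domain protein known from the axoneme in mammals, gave 10.92, 11.24, 10.83 and 11.04 in stage V testes, against 9.90, 9.82 and 9.82 in stage IIIb testes. The stage IIIb arrays were nearly identical and the lowest stage V array lay well above them. The change was 1.16 (SE 0.41, adjusted p = 0.48 with 38 arrays and 0.008 with 7). Txndc6 was among the clones that passed on the 7 arrays whichever array was left out.

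cetn4, which encodes a centrin of the centriole and basal body, gave 10.58, 10.72, 10.24 and 10.69 in stage V testes, against 9.49, 9.54 and 9.77 in stage IIIb testes. Here too the groups were apart, with stage V replicate 3 the lowest of its group. The change was 0.96 (SE 0.26, adjusted p = 0.22 with 38 arrays and 0.012 with 7). On the 7 arrays the adjusted p went to 0.054 without stage IIIb replicate 2 and to 0.052 without stage V replicate 2.

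spata4, a gene named for its expression in mammalian spermatogenesis, gave 9.25, 9.13, 9.07 and 9.09 in stage V testes, against 8.35, 8.14 and 8.35 in stage IIIb testes. All stage V arrays were thus above background, and stage IIIb replicate 2 lay just under it. The change was 0.85 (SE 0.31, adjusted p = 0.52 with 38 arrays and 0.0083 with 7). It also passed on the 7 arrays without any single array.

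The intraflagellar transport gene ift122, whose product is part of the complex that carries cargo back along the cilium, was measured by 2 clones that gave like values. Clone tcay0011.m.23 read 9.0, 9.48, 9.05 and 9.17 in stage V testes, against 8.70, 8.53 and 8.51 in stage IIIb testes. Clone 1rt32a14_c_a07 read 9.08, 9.60, 9.05 and 9.38 in stage V testes, against 8.74, 8.59 and 8.72 in stage IIIb testes. Stage V replicate 2 was the highest array in both clones. The change was 0.59 in each (SE 0.22 and 0.24), and neither passed, with adjusted p = 0.56 and 0.64 on 38 arrays and 0.060 and 0.079 on 7.

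**Figure D2:**
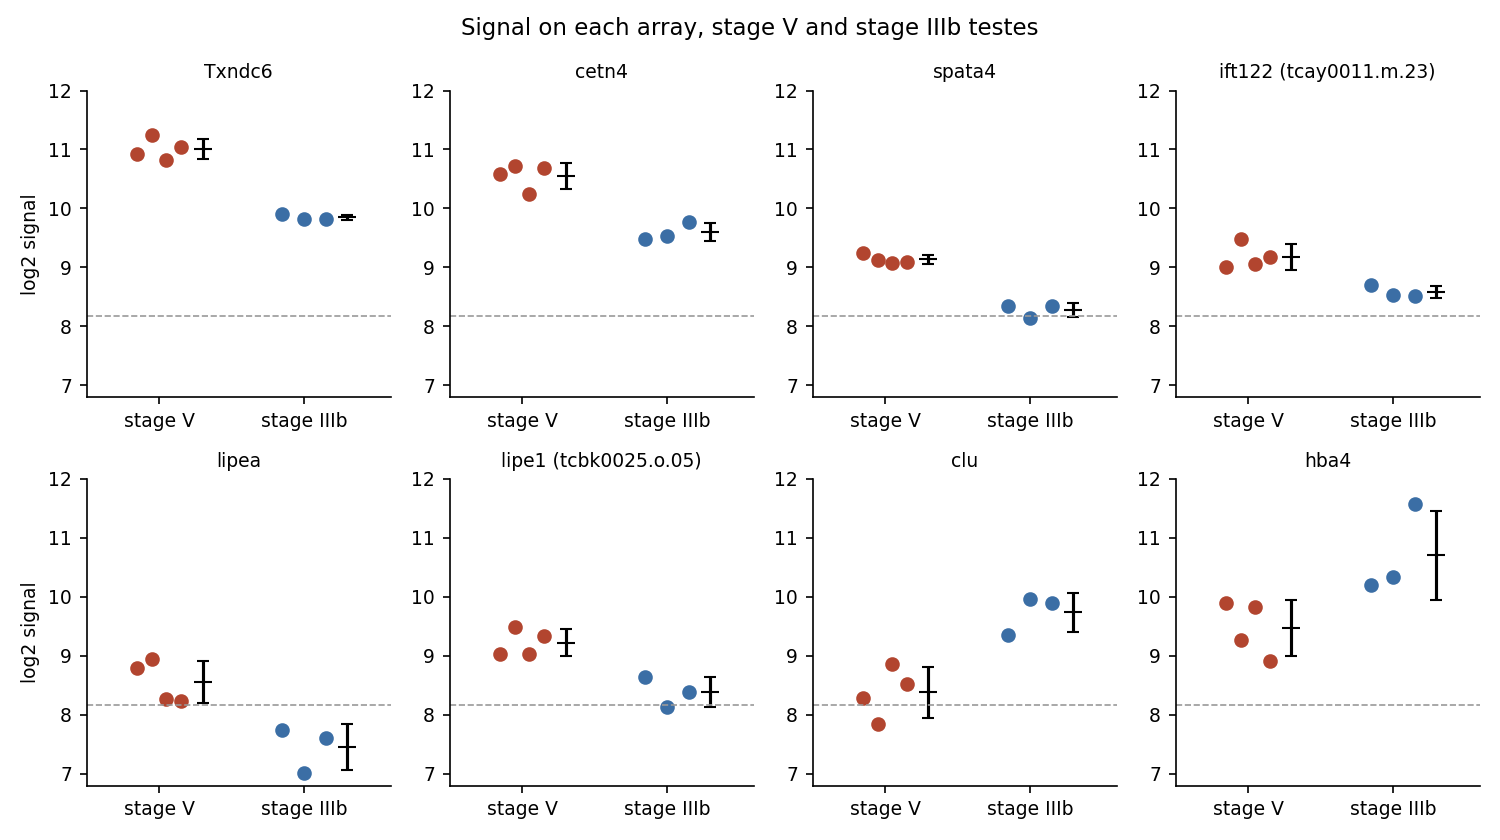
Log2 signal of 8 clones on each of the 4 stage V arrays (red, left) and the 3 stage IIIb arrays (blue, right), with the mean and SD in black beside the points and the background of 8.17 dashed. The groups are apart in all 8 panels, with stage V above in 6 of them and below for clu and hba4, and stage IIIb replicate 3 stands high for hba4 at 11.58.

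Hormone-sensitive lipase, which hydrolyses stored diacylglycerol and cholesteryl esters, was the only part of the lipid list with groups apart. lipea gave 8.80, 8.94, 8.27 and 8.24 in stage V testes, against 7.75, 7.02 and 7.60 in stage IIIb testes. It thus lay above background on every stage V array and under it on every stage IIIb array, where its level is not resolved. With values under the median of all arrays raised to it, the change was 0.40 (adjusted p = 0.33 with 38 arrays). The change between the values as deposited was 1.11 (SE 0.30, adjusted p = 0.22 with 38 arrays and 0.035 with 7), and on the 7 arrays it was lost without stage V replicate 1 or 2 or stage IIIb replicate 2 or 3 (adjusted p of up to 0.14).

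The paralogue lipe1 was read by 2 clones. Clone tcbk0025.o.05 averaged 9.22 ± 0.23 in stage V testes and 8.39 ± 0.25 in stage IIIb testes (SD, n = 4 and 3), a change of 0.83 that passed on the 7 arrays (adjusted p = 0.027) and not on 38 (adjusted p = 0.51). Clone tcbk0057.o.14 averaged 8.98 ± 0.35 in stage V testes and 8.10 ± 0.34 in stage IIIb testes, a change of 0.88 that passed in neither (adjusted p = 0.65 with 38 arrays and 0.07 with 7). Both clones had stage V wholly above stage IIIb (7.47% of all clones). In stage IIIb testes the mean of tcbk0057.o.14 was under background, and tcbk0025.o.05 read 8.14, just under it, on replicate 2. Whether the lipase clones share signal was not tested. In the rest of the lipid list, the other 8 clones, among them fatty acid-binding proteins and apolipoproteins, all had overlapping groups, and the median of the 11 clones was -0.02.

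Ubiquitin-related genes were mixed. In the list of 9 clones 7 were above 0, with a median of 0.33, and 4 had stage V wholly above stage IIIb (7.47% of all clones). fbxo25, an F-box subunit of a ubiquitin ligase, gave 9.08, 9.28, 9.35 and 8.93 in stage V testes, against 8.54, 8.61 and 8.59 in stage IIIb testes. Its change was 0.58 (SE 0.20, adjusted p = 0.43 with 38 arrays and 0.044 with 7).

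The 3 clones of csn6, a subunit of the COP9 signalosome, disagreed. Clone tcad0006.o.02 changed by 0.57 (adjusted p = 0.62 with 38 arrays and 0.027 with 7), clone 1rt115j05_b_e03 by 0.33 (adjusted p = 0.28 with 7 arrays) and clone 1rt118k04_c_f02 by -0.26 (adjusted p = 0.56 with 7 arrays). Only in the last did the groups overlap, at 12.41 ± 0.20 in stage V testes and 12.66 ± 0.33 in stage IIIb testes. No direction can be given for csn6 as a gene. Of the other ubiquitin genes ube2b, a ubiquitin-conjugating enzyme known to be needed for mouse spermiogenesis, differed by 0.34 with groups apart, and the proteasome subunits psmd8 and psmb6 by 0.24 and 0.14 with overlap, none of which passed.

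The other named clones that passed on the 7 arrays carried symbols to which no role is given here. cq032 differed by 0.55 (adjusted p = 0.43 with 38 arrays and 0.038 with 7) and LOC100301659 by 1.08 (adjusted p = 0.92 and 0.017). With Txndc6, cetn4, spata4, lipea, lipe1, csn6 and fbxo25 these were the 9 named clones among the 143. In all, 826 of the 9024 clones had a name.

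The remaining 134 of the 143 had no name here and held the largest changes. Only 229 entries of the study's supplementary table of differentially expressed clones were used for names, so these clones may be annotated there. Clone tcbk0047.l.20 gave 10.98, 10.69, 10.26 and 10 in stage V testes, against 9.22, 7.80 and 8.76 in stage IIIb testes, a change of 1.89 (SE 0.45, adjusted p = 0.18 with 38 arrays and 0.018 with 7). Clone tcbi0011.m.20 gave 12.43, 12.27, 11.98 and 11.79 in stage V testes, against 10.69, 9.86 and 10.44 in stage IIIb testes, a change of 1.79 (SE 0.49, adjusted p = 0.22 and 0.0083). In both clones the groups were apart, and stage IIIb replicate 2 was the lowest array. Over the 143 clones the changes ran from 0.47 to 1.89, with a median of 0.86.

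Several calls on the 7 arrays were lost in fits that left out an array. Txndc6, spata4 and clone tcbi0011.m.20 passed in all 7 fits that left out an array. LOC100301659 and clone tcbk0047.l.20 passed in 4 of the 7, and lost the call without stage V replicate 2, stage IIIb replicate 2 or stage IIIb replicate 3 (adjusted p of up to 0.062 and 0.072). The called lipe1 clone passed in 3 of the 7, being lost also without stage V replicate 4 (up to 0.13). cq032 passed in 2 of the 7, without stage V replicate 1 or 3. fbxo25 passed only without stage V replicate 4 and csn6 only without stage V replicate 3 (up to 0.15 and 0.13 in the other fits). Over the 7 fits the change ran from 0.52 to 0.66 for fbxo25, from 0.53 to 0.63 for csn6 and from 0.50 to 0.60 for cq032.

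Because the 143 clones were chosen on the 7 arrays, their levels in those arrays are a description only, while the isolated cells are other samples. Of these, spermatid replicate 2 stood apart. The mean of the 5 flagellar clones was 9.91, 8.5 and 9.90 on the 3 spermatid arrays, and that of the 10 matrix and peritubular clones 8.12, 9.94 and 8.39. sycp3 read 11.51, 10.18 and 11.72 and the mean of the 4 Sertoli clones was 7.68, 8.24 and 8.10. The Sertoli mean was highest on replicate 2 only through clu, which read 9.96 there. Replicate 2 thus read lowest for these germ cell genes and highest for the matrix and peritubular list. Some results on isolated spermatids are also given without it. Low flagellar signal was part of that choice, and Txndc6, cetn4 and spata4 are among the 143. Leaving the array out therefore favours higher spermatid values of such clones in advance.

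In stage V testes 138 of the 143 (96.5%) lay above background, against 106 (74.1%) in stage IIIb testes. Isolated spermatocytes exceeded isolated spermatogonia for 105 of the 143 (73.4%, against 12% of all clones), with 0 lower (14.9% of all clones). Isolated spermatids exceeded isolated spermatogonia for 128 (89.5%, against 9.74% of all clones), again with 0 lower (11.6% of all clones). These calls share the spermatogonia and are set side by side. In isolated spermatogonia 52 of the 143 (36.4%) lay above background, against 49.6% of all clones, which leaves less room for lower calls. The spermatid count was 98 without spermatid replicate 1 (7.49% of all clones), 135 without replicate 2 (14.5%) and 82 without replicate 3 (3.46%).

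The comparison of isolated spermatids with isolated spermatocytes depended on the spermatid array left out. With all arrays 1 of the 143 passed (0.699%, against 0.0665% of all clones), 76 (53.1%) were above 0, against 48.3% of all clones, and the median difference was 0.06. Without spermatid replicate 2, 32 passed as higher (2.32% of all clones) and 0 as lower. In that fit 129 (90.2%) were above 0, against 46.6% of all clones, and the median was 0.56. That array was set apart in part by low values of clones among the 143, so this fit favoured an excess in spermatids beforehand. Without spermatid replicate 3, 49 were above 0 and the median was -0.24, and without spermatid replicate 1 they were 52 and -0.12. No direction can therefore be given for the 143 clones as a whole between these fractions. Both fractions passed against spermatogonia for 101 clones, spermatids alone for 27, spermatocytes alone for 4 and neither for 11. All clones were not counted in these classes, and the spermatid calls varied with the array left out, so this split is a description only.

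The 12 clones with a spermatid excess of at least 1 over spermatocytes included some of the largest stage V changes. Clone tcbk0047.l.20 ranged from 8.53 to 10.82 in isolated spermatids, from 7.51 to 8.51 in spermatocytes and from 7.19 to 7.64 in spermatogonia, with a difference of 1.54 between spermatids and spermatocytes (adjusted p = 0.13). Clone tcbk0045.b.17, whose stage V change was 1.64, ranged from 8.77 to 10.54 in isolated spermatids, from 7.68 to 8.38 in spermatocytes and from 7.12 to 7.54 in spermatogonia. In both clones spermatid replicate 3 was the highest array and spermatids did not overlap spermatocytes, though for tcbk0047.l.20 only by 8.53 against 8.51. Clone tcbk0008.d.15, whose stage V change was 1.45, ranged from 8.42 to 10.38 in isolated spermatids, from 7.67 to 8.63 in spermatocytes and from 7.15 to 8.12 in spermatogonia, so that spermatids and spermatocytes overlapped at spermatid replicate 2. Without that array the difference between spermatids and spermatocytes passed for all 3 clones (2.06, 2.14 and 1.64, adjusted p = 0.0099, 0.0026 and 0.0023). The choice of that array favoured such a result. None of the 3 passed when spermatid replicate 3 was left out (0.91, 1.25 and 0.66, adjusted p = 0.72, 0.61 and 0.72). Nor did any when spermatid replicate 1 was left out (1.66, 1.62 and 1.11, adjusted p = 0.12, 0.1 and 0.17). No clone of the 143 had a difference of -1 or less between these fractions. All clones were not counted at these cuts, so the 12 are a description only.

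**Figure D3:**
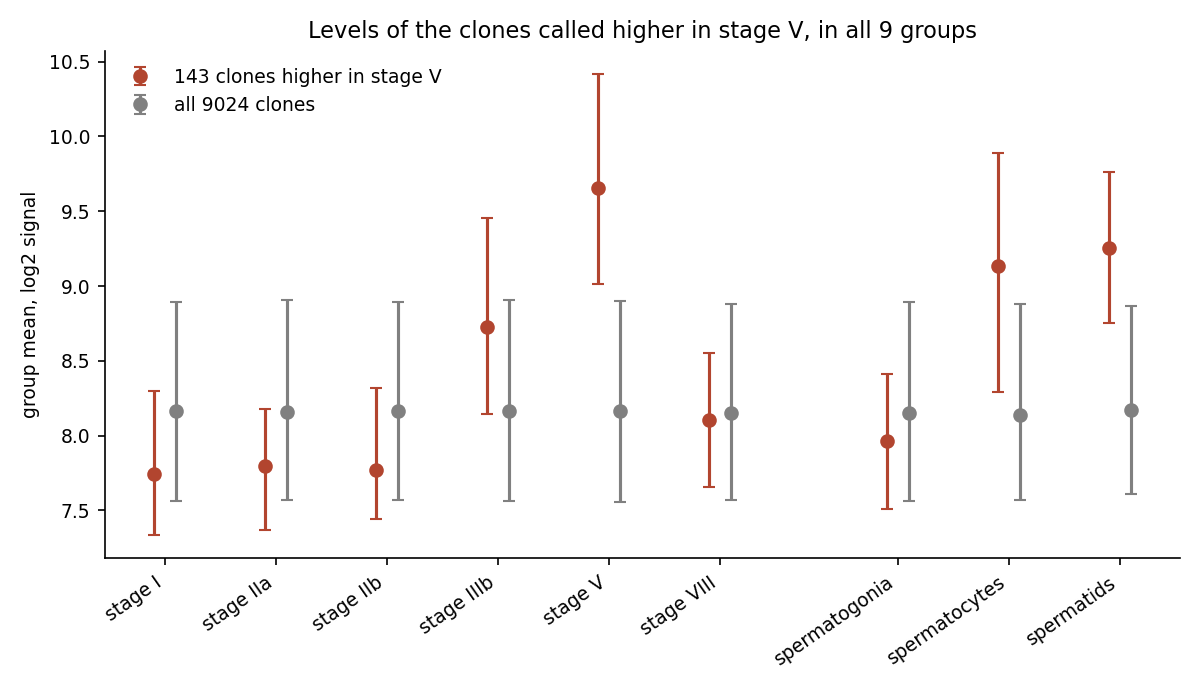
Median (point) and quartiles (bars) of the group means, in log2 signal, of the 143 clones called higher in stage V on the 7 arrays (red) and of all 9024 clones (grey), for the 6 testis stages and the 3 isolated cell fractions. The red medians are near 7.8 in stages I to IIb, reach 9.65 in stage V and are 9.13 in isolated spermatocytes and 9.25 in isolated spermatids, while the grey ones stay near 8.17; stages V and IIIb chose the clones.

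Over the stages the 143 clones had median levels of 7.74 in stage I, 7.80 in IIa, 7.77 in IIb, 8.72 in IIIb, 9.65 in V and 8.11 in VIII. The step before, stage IIIb minus stage IIb, had a median of 0.84 for these clones, and that after, stage VIII minus stage V, one of -1.47. Both steps share arrays with the choice of the clones and are given as values. In samples that the choice did not use, stage VIII exceeded stage I for 16 of the 143 (11.2%, against 11.3% of all clones) and lay below it for 3 (2.1%, against 12.9%). In stage I 44 of the 143 (30.8%) lay above background, against 49.9% of all clones. Clones under background leave little room for a lower call, so the count of 3 is a description only.

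The clones of the flagellar list followed the same levels in whole testes. Txndc6 averaged 8.16 in stage I, 7.65 in IIa, 7.95 in IIb, 9.85 in IIIb, 11.01 in V and 8.04 in VIII. In isolated cells it ranged from 8.59 to 11.01 in spermatids, from 9.41 to 11.08 in spermatocytes and from 7.59 to 8.39 in spermatogonia. Spermatids and spermatocytes overlapped and both passed against spermatogonia, by 2.11 and 2.30 (adjusted p = 0.00013 and 7.4e-07).

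cetn4 likewise averaged 10.48 in isolated spermatids, 10.52 in spermatocytes and 8.66 in spermatogonia. spata4 averaged 8.84 in isolated spermatids, 8.64 in spermatocytes and 7.70 in spermatogonia. The ift122 clones averaged 8.77 and 8.98 in spermatids, 8.93 and 9.24 in spermatocytes and 7.84 and 7.82 in spermatogonia. For none of these 5 clones did the difference between spermatids and spermatocytes pass (adjusted p of 0.81 to 0.99). Without spermatid replicate 2 these differences were 0.12 to 0.69 and none passed (adjusted p of 0.19 to 0.83). That array had been set apart partly by these same clones. Leaving out spermatid replicate 1 instead gave -0.64 to -0.01, and leaving out spermatid replicate 3 gave -0.52 to -0.09, and none passed. The sign of these differences thus depended on the array left out.

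lipea gave 7.64 to 9.15 in isolated spermatids, 6.88 to 7.90 in spermatocytes and 6.64 to 7.48 in spermatogonia. It exceeded spermatogonia in spermatids (1.39, adjusted p = 0.00046) and did not pass in spermatocytes (0.46, adjusted p = 0.14). The difference between spermatids and spermatocytes was 0.93 (SE 0.28, adjusted p = 0.21). Its arrays in those 2 fractions overlapped at a single spermatid array. All spermatogonia and spermatocyte arrays and that spermatid array were under background, so that these differences rest in part on levels that are not resolved. Without spermatid replicate 2 the difference between spermatids and spermatocytes was 1.29 (adjusted p = 0.013), in a fit that the choice of that array favoured. Leaving out spermatid replicate 3 gave 0.54 (adjusted p = 0.76) and leaving out spermatid replicate 1 gave 0.98 (adjusted p = 0.2), neither of which passed.

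**Figure D4:**
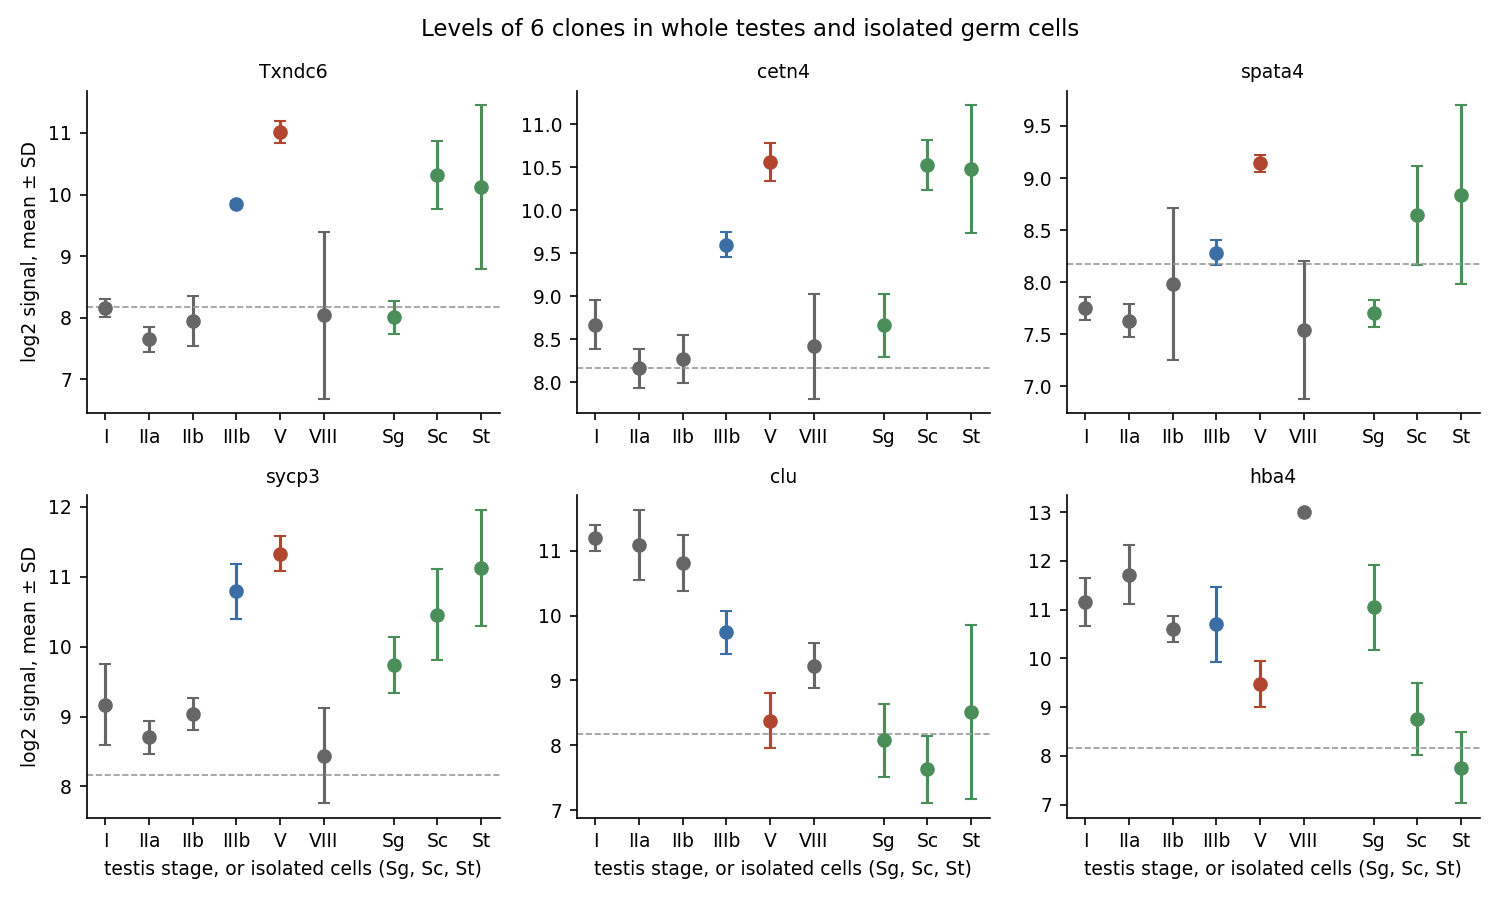
Mean and SD in log2 signal of 6 clones in whole testes at stages I to VIII (stage IIIb blue, stage V red) and in isolated spermatogonia (Sg), spermatocytes (Sc) and spermatids (St, green), with the background of 8.17 dashed and a separate vertical axis in each panel. Txndc6, cetn4, spata4 and sycp3 have their highest whole-testis mean in stage V, whereas clu has its lowest there, at 8.38, and hba4 its lowest whole-testis mean, at 9.48.

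The meiotic gene sycp3, a lateral element protein of the synaptonemal complex and a marker of spermatocytes, was not lower in stage V. It gave 10.97, 11.46, 11.35 and 11.53 in stage V testes, against 10.45, 11.22 and 10.72 in stage IIIb testes. The groups overlapped at the highest stage IIIb array, and the change of 0.53 did not pass (SE 0.36, adjusted p = 1.00 with 38 arrays and 0.23 with 7). Its mean was 11.13 in isolated spermatids and 10.46 in spermatocytes. The arrays of these fractions overlapped, and the difference of 0.68 did not pass (adjusted p = 0.58 with 38 arrays). It was 1.15 without spermatid replicate 2 (adjusted p = 0.059), an array set apart in part by its low sycp3. Leaving out spermatid replicate 1 or 3 gave 0.49 and 0.38, which did not pass. In these fractions sycp3 was thus not higher in spermatocytes.

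The chromatin protein gene hmgb1a gave 11.71, 12.15, 11.70 and 11.72 in stage V testes, against 11.51, 11.69 and 10.92 in stage IIIb testes. The groups nearly touched, at 11.70 and 11.69 in the nearest arrays, and the change of 0.45 did not pass (SE 0.21, adjusted p = 0.90 with 38 arrays and 0.32 with 7). Without stage IIIb replicate 3, the lowest array, it was 0.22. Among the germ line genes, the vasa gene ddx4 differed by -0.22 and the Piwi gene piwil2 by -0.15, with overlap and adjusted p = 1.00 for each. These genes are known for early germ cells, and isolated spermatids fell below spermatogonia by 1.14 for ddx4 and by 1.07 for piwil2 (adjusted p = 8.7e-05 and 4.9e-05).

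Among genes of the somatic cells, clu was the single one that passed. clu encodes clusterin, a secreted glycoprotein abundant in Sertoli cells, and gave 8.28, 7.85, 8.86 and 8.53 in stage V testes, against 9.35, 9.96 and 9.90 in stage IIIb testes. Stage V arrays lay between 7.85, under background, and 8.86, and all were below the lowest stage IIIb array. The change was -1.36 (SE 0.39, adjusted p = 0.28 with 38 arrays and 0.018 with 7), the most negative of all clones. On the 7 arrays the adjusted p reached 0.095 without stage IIIb replicate 2, 0.078 without stage IIIb replicate 3 and 0.052 without stage V replicate 2.

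The other Sertoli cell genes differed less. The testis differentiation factor dmrt1 gave 8.80 ± 0.17 in stage V testes and 9.03 ± 0.04 in stage IIIb testes, a difference of -0.22 with overlap. sox9 gave 7.68 ± 0.05 in stage V testes and 7.89 ± 0.10 in stage IIIb testes, a difference of -0.21 with groups apart but under background in both, and Sox9i differed by 0.01. None of them passed. The mean of the 4 Sertoli clones ranged from 7.87 to 8.23 in stage V testes, against 8.44 to 8.56 in stage IIIb testes.

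Steroidogenic genes, the markers of Leydig cells, differed little and mostly downward. In this list 6 of 7 clones were below 0, with a median of -0.23 against -0.02 for all clones, and none passed. The steroid dehydrogenase hsd3b1 gave 8.82, 8.93, 9.05 and 8.95 in stage V testes, against 9.28, 9.25 and 9.40 in stage IIIb testes. The groups were apart, with a change of -0.37 (SE 0.23, adjusted p = 1.00 with 38 arrays and 0.12 with 7).

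hsd11b2, which in fish takes part in making 11-oxygenated androgens, averaged 8.13 ± 0.20 in stage V testes and 8.60 ± 0.18 in stage IIIb testes, with an overlap of 1 array. star, which carries cholesterol into mitochondria, averaged 7.86 ± 0.18 in stage V testes and 8.06 ± 0.12 in stage IIIb testes, both means being under background. The steroid hydroxylase cyp17a1 differed by -0.25 and the luteinizing hormone receptor lhcgr by 0.23, the only member above 0. The mean of the 7 clones ranged from 8.12 to 8.19 in stage V testes, against 8.28 to 8.48 in stage IIIb testes.

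In the list of matrix and peritubular genes 8 of 10 clones were below 0, with a median of -0.42, and none passed. The list was matched by symbol and held collagen I, keratin, myl1 and mmp9 clones, so it stands for no single cell type. The clones above 0 were those of myl1, at 0.08 and 0.10. The 2 clones of the epithelial keratin krt18 differed by -0.67 and -0.68, with groups apart in the second, and 1 clone of the collagen chain col1a1b by -0.61 while the other differed by -0.01. Without stage IIIb replicate 3 the first krt18 clone (1rt100c06_c_b03) differed by -0.36. The mean of the 10 clones ranged from 9.77 to 10.21 in stage V testes, against 10.16 to 10.66 in stage IIIb testes, with a slight overlap. Stage IIIb replicate 3, which also read highest for red blood cell genes, was the array at 10.66. The study's supplementary table was used only in part, and the names taken from it belong to a somatic cluster chosen on these samples. The 146 clones named only there had a median of -0.07, with 106 below 0. Of these, 13 had stage V wholly below stage IIIb and 3 wholly above, against 6.04% and 7.47% of all clones.

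Red blood cell genes were the lowest of all lists. All 8 haemoglobin clones were below 0, with a median of -1.07, and 7 had stage V wholly below stage IIIb (6.04% of all clones), yet none passed. The clones are chains of near-identical gene families that can share signal, and they are not independent of each other. hba4 gave 9.90, 9.27, 9.83 and 8.91 in stage V testes, against 10.20, 10.33 and 11.58 in stage IIIb testes. The change was -1.23 (SE 0.44, adjusted p = 0.52 with 38 arrays and 0.12 with 7).

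Stage IIIb replicate 3 was the highest of the 7 arrays for each of the 8 haemoglobin clones, and without it the change of hba4 was -0.79. hbb1 gave 10.96, 10.57, 11.14 and 9.96 in stage V testes, against 11.45, 11.29 and 12.52 in stage IIIb testes, a change of -1.09 (adjusted p = 0.81 with 38 arrays and 0.15 with 7) that was -0.71 without that array. The other red cell genes differed less, the anion exchanger ae1 by -0.35 and the carbonic anhydrase cahz by -0.06, both with overlap, and ae1 lay under background on all 7 arrays. The mean of the 10 red cell clones was 9.83, 9.41, 9.77 and 9.10 in stage V testes, against 9.96, 10.05 and 10.96 in stage IIIb testes. The part of blood in the other differences was not tested.

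**Figure D5:**
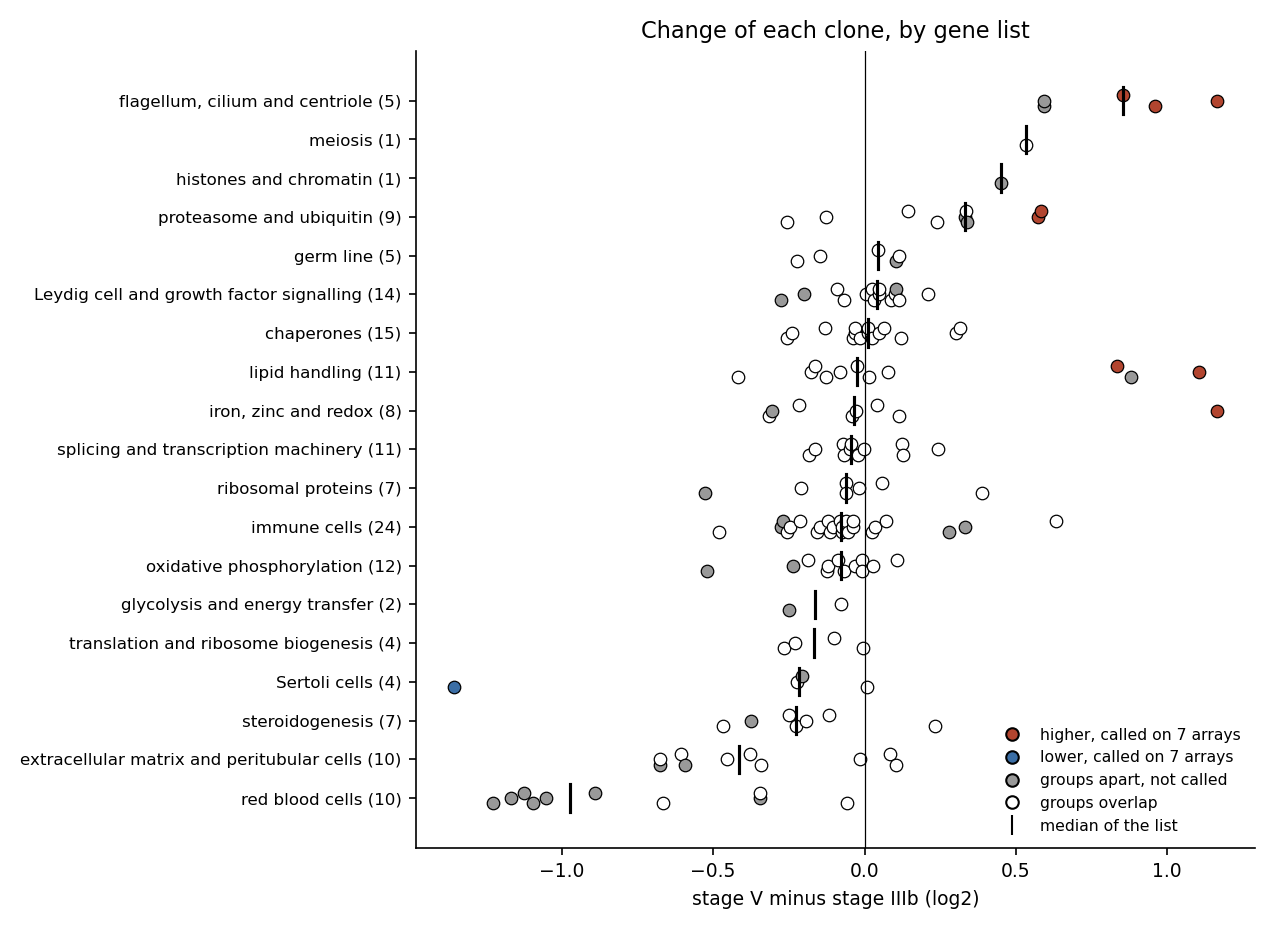
Change of each clone (stage V minus stage IIIb, log2) by gene list, with the number of clones in parentheses, the median as a bar, and small vertical offsets only for legibility. The flagellar list lies highest (median 0.85) and the red blood cell list lowest (median -0.97), and most members of the other lists lie within the open, overlapping range around 0.

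Housekeeping lists and the immune list lay near the median of all clones. Ribosomal proteins (7 clones) had a median of -0.06, oxidative phosphorylation (12 clones) -0.08, chaperones (15 clones) 0.01, splicing and transcription machinery (11 clones) -0.04 and immune genes (24 clones) -0.08. None of their members passed in either fit. Rps15, which the study used as the reference gene of its PCR assays, gave 12.72, 12.64, 12.61 and 12.78 in stage V testes, against 12.79, 12.72 and 12.73 in stage IIIb testes, a difference of -0.06 with overlap.

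The 10 clones lower in stage V on the 7 arrays had a median change of -0.64, and 9 of them had no name. After clu the most negative were tcbk0040.p.09 and 1rt91p13_b_h07. Clone tcbk0040.p.09 gave 9.79, 10.08 and 9.41 in 3 stage V arrays, its value on stage V replicate 1 being missing, against 10.53, 10.63 and 10.90 in stage IIIb testes, a change of -0.93 (adjusted p = 0.43 with 38 arrays and 0.038 with 7) that passed in 1 of the 6 fits that left out an array with a value, that without stage V replicate 3. In other samples, 7 of the 10 were lower in stage VIII than in stage I (70%, against 12.9% of all clones) and 0 higher. All 10 lay above background in stage I, against 49.9% of all clones, which leaves more room for lower calls.

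Further tests asked whether the change between the stages differed from that in isolated cells, or from the step before it. Between isolated spermatids and isolated spermatocytes 6 clones were higher (0.0665%) and 0 lower (0%; limma, all 38 arrays), and 774 had an unadjusted p under 0.05 (8.58%). Without spermatid replicate 2, 209 were higher (2.32%) and 80 lower (0.887%). Of these 6, 5 had no name and the other was LOC100136183, which differed by 1.12 between the fractions (SE 0.22, adjusted p = 0.02) and by 0.46 between stage V and stage IIIb testes with overlap. Clone tcay0039.i.23 was the one of the 6 that also passed between the stages on the 7 arrays, by 1.03 (adjusted p = 0.015).

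The test of the difference between the whole-testis change and that in isolated cells gave 0 clones, with 518 at an unadjusted p under 0.05 (5.74%). For clu the change was -1.36 in whole testes and 0.89 in isolated cells, a difference of -2.25 (adjusted p = 0.30). Its spermatid arrays ranged from 7.30 to 9.96, with replicate 2, the array of highest mean in the matrix and peritubular list, at the top. Without that array the change in isolated cells was 0.17 and the difference -1.53 (adjusted p = 0.41), and without spermatid replicate 1 the difference was -2.86 and passed (adjusted p = 0.011). The test of whether the change from stage IIIb to stage V differed from that from stage IIb to stage IIIb also gave 0 clones, with 315 at an unadjusted p under 0.05 (3.49%). Neither test shows that the changes were alike.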

How the data were processed

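RNA of 38 samples had been labelled with 33P and hybridized to nylon arrays of 9216 entries. The deposited log2 values had been scaled by the authors to the vector signal of each spot, and to the median of that signal over the arrays, and then quantile normalized. These were used unchanged, and 0 value columns lacked a sample. After removal of 192 empty entries 9024 clones remained. Values were missing on at least 1 array for 190, among them 169 on stage V replicate 1, and were not imputed. The authors' filter on low vector signal was not applied.

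Symbols came from the array description (677 clones), the study's Methods (3) and its supplementary table (146). Of that table only 229 entries were used, so many clones that the study annotated stayed unnamed. Of the symbols of the array description 669 were matched by Entrez number to RefSeq. A mean for each of the 9 groups was estimated by limma (version 3.58.1, R 4.3.3) from all 38 arrays (prior df 7.3, residual df 29) and, as an alternative, from the 7 arrays (prior df 5.1, residual df 5). P-values were adjusted after Benjamini and Hochberg over 9024 clones and called under 0.05. Named were list members, clones of the Methods, called clones and the clones of smallest p in the tests of differences. Lists were matched by symbol, and that of DNA replication and cell cycle had no clone. Of the other lists, Leydig cell and growth factor signalling had a median of 0.04, iron, zinc and redox -0.04, translation and ribosome biogenesis -0.17 and glycolysis -0.16. Members and lists were chosen with earlier results of these data known. The script was tested on simulated data. Precision was limited by the number of arrays.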

Additional observations from a re-analysis of the deposited data

Results flagged for a closer look

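Of 105 groups of values examined, 7 had a lone array far from the others, and chance gives about 1 in 20. In stage V testes, edf1, a transcriptional coactivator, was 8.95 in replicate 1 against 10.48 to 10.72 in the others, and igfbp7 was 8.44 in replicate 1 against 8.26 to 8.29. Stage V replicate 2 was the high one for hmgb1a, at 12.15 against 11.70 to 11.72, and for TNRC6C, at 8.28 against 7.78 to 7.81. Outside these stages, cetn4 was 9.35 in spermatogonia replicate 6 against 8.34 to 8.70, clu 10.85 in stage I replicate 4 against 11.24 to 11.35, and ift122 (clone 1rt32a14_c_a07) 7.20 in stage IIb replicate 1 against 7.72 to 7.80.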

How the results depend on the processing

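The number of clones called between stage V and stage IIIb depended on which arrays set the spread. It was 0 with all 38 arrays, 0 under 7 of the other planned settings and 0 without any single array of these stages. It was 153 with the 7 arrays, 16 with values under the median raised to it and 555 with array weights. Settings chosen after seeing the data gave 63 with the 6 testis stages alone and 7 without spermatid replicate 3. The 153 clones in turn, in fits added after seeing the data, became 11 with raised values, 264 with array weights and 0 at an adjusted p of 0.005. Leaving out an array gave 24 to 172 (24 without stage IIIb replicate 2, 30 without stage V replicate 2, 70 without stage IIIb replicate 3 and 91 without stage V replicate 4). All 30 and 22 of the 24 were among the 153. The replicate block, with numbers that the labels do not tie to a shared fish or day and that correlated at 0.09, -0.14 and 0.18, gave 0 clones on 38 arrays and 5 on 7.

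Between isolated spermatids and spermatocytes the 6 clones became 0 with these fractions alone, 47 with raised values, 1 with array weights, 2 with the replicate block, 3 at 0.005 and 3 to 289 without an array (289 without spermatid replicate 2, 30 without replicate 1, 10 without spermatocyte replicate 1, 3 without spermatocyte replicate 4). The difference of successive steps was called for 189 clones with array weights. That between whole testes and isolated cells was called for 2 with raised values, 1 with array weights and 0 to 9 without an array (9 without spermatid replicate 1). The 128 clones that were also higher in spermatids than in spermatogonia became 82 to 135 without a spermatid array, a choice also made after seeing the data. Of the named changes only that of cahz turned its sign, with a range of -0.18 to 0.08 without an array (0.08 without stage IIIb replicate 3). The cause of these shifts was not tested. Signal near the median of 8.17 limits low clones such as lipea, sox9, star and ae1.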
